A study of Mus musculus with 2 samples.

Results

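The expression of 10 immediate early genes was examined in mouse nasal mucosa under papain and under phosphate-buffered saline (PBS), both labelled as 3 days. The genes were Fos, Fosb, Jun, Junb, Egr1, Egr2, Egr3, Nr4a1, Dusp1 and Ier2. They were taken by gene symbol from a list of immediate early genes drawn up with earlier results of these arrays known, by a rule that uses no measured value, and all 10 were found among the 22180 genes that the array annotation names. The papain group was C57BL/6 mice given papain, the cysteine protease of papaya that serves as a model allergen, and the PBS group was C57BL/6 mice given the vehicle. Both groups were 4 to 6 weeks old and were sampled as nasal mucosa, and no transgene or other agent is named for either. The platform was the Affymetrix Mouse Gene 2.0 ST array, with 1 array of total RNA per group. The design text speaks of 4 samples combined into a specimen, without saying whether 4 were pooled for each array, so the number of animals behind an array is not known and its value carries no spread between animals. How often papain was given, and the time between the last dose and sampling, are not given in the sources used.

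Immediate early genes are the first genes that a cell transcribes after a growth factor, cytokine, injury or depolarisation signal, and they need no new protein synthesis for it. Kinase cascades activate serum response factor with its ETS partners and the cyclic AMP response element binding protein (CREB) at their promoters, and the transcripts appear within minutes and decay within hours. In mucosa they are known from epithelial injury and leukocyte activation, and in olfactory and vomeronasal neurons from sensory activity. The products are mostly transcription factors, joined by feedback inhibitors such as Dusp1.

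The genes themselves are compact. The 10 genes ran from 1522 bases for Ier2 to 20894 bases for Nr4a1 in GRCm38.p6, with a median of 3568 bases against 18692 bases for 18964 named protein-coding genes. Junb and Ier2 lie on chromosome 8 with 314 kilobases and 17 protein-coding genes between them, and the other 8 lie on 8 different chromosomes. Of the 10 genes, 7 were matched in the RefSeq promoter table of GRCm38.p6, which gives 250 bases before and 50 bases from each start it lists. Egr1, Egr3 and Ier2 were not among the 7. The Nr4a1 window opens at 101266596, inside a gene that begins at 101253902, and no window covers the gene start of Egr2. The 11 promoter windows of those 7 genes had a median GC content of 60.0%, against 52.7% for all 32851 windows, and Egr2 alone contributed 5 of the 11. The promoters of the genes with the 2 lowest papain over PBS ratios (Nr4a1 and Junb), of the gene with the highest (Egr2, at one of its 5 annotated starts) and of Dusp1, the only one of the 7 with a full cyclic AMP response element, are shown here 5′ to 3′ on the strand of the gene. Capitals mark the matches to the searched motifs on either strand: TGACG, the short cyclic AMP response element (which reads CGTCA where it lies on the opposite strand), the full element TGACGTCA, which holds the short element on both strands, the EGR element GCGGGGGCG and the CArG box of serum response factor.
Nr4a1, chr15:101266596-101266895, plus strand: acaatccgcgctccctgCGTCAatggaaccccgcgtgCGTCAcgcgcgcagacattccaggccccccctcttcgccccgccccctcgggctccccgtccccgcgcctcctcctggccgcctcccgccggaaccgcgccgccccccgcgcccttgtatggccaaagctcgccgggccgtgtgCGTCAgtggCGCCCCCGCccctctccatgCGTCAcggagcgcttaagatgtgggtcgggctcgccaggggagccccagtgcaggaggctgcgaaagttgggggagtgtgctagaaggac
Junb, chr8:84978699-84978998, minus strand: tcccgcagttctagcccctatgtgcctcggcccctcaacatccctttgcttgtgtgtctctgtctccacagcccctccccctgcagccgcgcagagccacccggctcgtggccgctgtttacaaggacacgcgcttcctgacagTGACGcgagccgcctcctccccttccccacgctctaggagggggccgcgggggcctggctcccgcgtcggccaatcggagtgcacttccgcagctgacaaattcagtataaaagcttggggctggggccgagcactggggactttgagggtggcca
Egr2, chr10:67537619-67537918, plus strand: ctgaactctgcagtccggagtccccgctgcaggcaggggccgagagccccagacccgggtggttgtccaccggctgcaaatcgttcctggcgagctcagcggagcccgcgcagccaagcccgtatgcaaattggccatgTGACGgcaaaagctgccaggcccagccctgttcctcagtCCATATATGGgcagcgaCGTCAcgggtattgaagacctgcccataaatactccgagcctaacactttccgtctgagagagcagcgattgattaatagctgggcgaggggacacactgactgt
Dusp1, chr17:26508423-26508722, minus strand: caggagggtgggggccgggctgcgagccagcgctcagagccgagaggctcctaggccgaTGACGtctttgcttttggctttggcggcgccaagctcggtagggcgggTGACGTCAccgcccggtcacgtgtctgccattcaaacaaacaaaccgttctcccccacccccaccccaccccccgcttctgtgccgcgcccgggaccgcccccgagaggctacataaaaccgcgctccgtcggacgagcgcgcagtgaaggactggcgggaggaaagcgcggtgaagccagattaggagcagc

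The short element TGACG was found in the windows of 6 of the 7 genes (Fos, Fosb, Junb, Egr2, Nr4a1 and Dusp1), and 20.8% of all 32851 windows hold it. A gene is counted if any of its windows has a match, whereas the shares are of single windows, so the units differ. The full element TGACGTCA was found in Dusp1 alone among the 7, and in 1.79% of all windows. The CArG box was found in Egr2, where it reads CCATATATGG in the window shown, and in 1.63% of all windows. The EGR element GCGGGGGCG was found in Fosb and Nr4a1, and in 2.91% of all windows. The second EGR form searched, GCGTGGGCG, and the AP-1 element TGACTCA were found in none of the 7, and in 0.612% and 5.20% of all windows. These are matches of letters within 300 bases at the listed starts, and an element farther upstream or at another start is not covered.

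The 10 genes differed little between the arrays. None was 2-fold or even 1.5-fold apart in either direction, and their log2 ratios of papain over PBS ran from -0.49 for Nr4a1 to 0.40 for Egr2, with a median of -0.11. Of the 10 genes, 7 had a ratio below 0 and 3 above. Among all 22180 named genes 2.56% were at least 2-fold apart and 9.72% at least 1.5-fold apart, so a count of 0 among 10 genes does not stand out from the genes at large. In tissue RNA, fewer cells of a type and less RNA per cell cannot be told apart. With 1 array per group no test was possible and no ratio has a replicate check. The only error that could be measured was that between probe sets: in 1082 genes with more than 1 probe set, a single probe set had an SD of 0.32 in its log2 ratio. Of the 10 genes, 7 had a ratio within that SD of 0 and none lay beyond 2 SD, while 68.5% of all named genes lay within it. Across 41345 transcript clusters the correlation of the arrays was r = 0.967, a figure over probe sets, and the median log2 ratio of the 11691 genes above the floor was -0.10. The floor, used to set aside dim genes, asks that the higher of a gene's 2 signals reach 6.29, the median log2 signal of named genes. It was passed by 8 of the 10 genes, with 7 of those 8 ratios below 0, against 64.1% of all genes above the floor. None of the 8 was 2-fold apart, against 1.98% of all genes above the floor. In the 224 genes whose 2 brightest probe sets both had a mean signal of at least the floor, the probe set SD was smaller, at 0.243. Jun at -0.246 lay just beyond that smaller SD, Junb at -0.389 lay farther beyond it, and Nr4a1 at -0.486 lay close to 2 of them. Set against the median of -0.10, 5 of the 10 genes were higher and 5 lower.

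**Figure D1:**
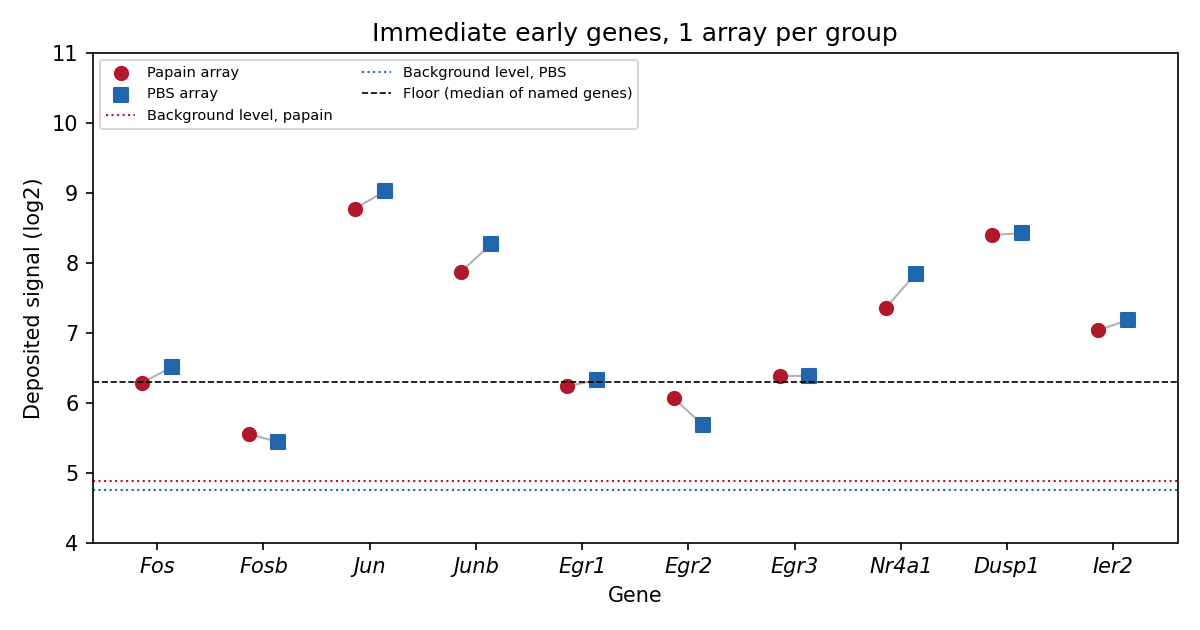
Deposited log2 signal of each of the 10 genes on the papain array (red circles) and the PBS array (blue squares), 1 array per group, with the background level of each array (dotted) and the floor of 6.29 (dashed). The paired points lie close together for every gene, with Nr4a1 and Junb lower and Egr2 higher in the papain array. The height of 1 gene against another depends on its probes.

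AP-1 is a dimer of a FOS and a JUN protein, and 4 of the genes encode its subunits. Fos, the prototype immediate early gene (gene ID 14281, chr12:85473890-85477274), had log2 signals of 6.29 after papain and 6.51 after PBS, a log2 ratio of -0.23. Fosb (gene ID 14282, chr7:19302696-19310118), which encodes a close relative of Fos, read 5.55 after papain and 5.44 after PBS, a log2 ratio of 0.12. The Fos and Fosb ratios thus had opposite signs, both within the probe set SD. Jun (gene ID 16476, chr4:95049036-95052222), the main partner of FOS proteins, read 8.77 after papain and 9.02 after PBS, a log2 ratio of -0.25. Junb (gene ID 16477, chr8:84976909-84978748), a JUN protein that can restrain Jun activity, read 7.87 after papain and 8.26 after PBS, a log2 ratio of -0.39. Junb was thus 1.31-fold lower in the papain array, the largest difference among the 4 subunits. It was 1 of 3 among the 10 genes that exceeded the probe set SD of 0.32.

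Egr1, Egr2 and Egr3 encode zinc finger factors that bind the same GC-rich element. Egr1 (gene ID 13653, chr18:34861207-34864956) read 6.24 after papain and 6.32 after PBS, a log2 ratio of -0.09. Egr3 (gene ID 13655, chr14:70077317-70082613) read 6.38 in both arrays, and its log2 ratio was 0.00. Egr2 (gene ID 13654, chr10:67534469-67542188), also a factor of Schwann cell myelination, read 6.07 after papain and 5.67 after PBS, a log2 ratio of 0.40 or 1.32-fold higher in the papain array. Egr2 was the gene with the highest ratio of the 10, from signals under the floor in both arrays. The 4 measured glial and Schwann cell markers (of 6 listed) had a median log2 ratio of -0.31, with 1 of the 4 above 0, and median log2 signals of 6.25 after papain and 6.67 after PBS. Their part in the Egr2 ratio was not tested.

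Nr4a1 (gene ID 15370, chr15:101253902-101274795), an orphan nuclear receptor also called Nur77, had the lowest ratio. It read 7.36 after papain and 7.85 after PBS, a log2 ratio of -0.49 or 1.40-fold lower in the papain array. Dusp1 (gene ID 19252, chr17:26505591-26508472), a phosphatase that switches off MAP kinases, read 8.40 after papain and 8.42 after PBS, a log2 ratio of -0.02. Ier2 (gene ID 15936, chr8:84661331-84662852), a small nuclear protein of the immediate early response, read 7.04 after papain and 7.18 after PBS, a log2 ratio of -0.14. As deposited, Dusp1 and Egr3 had the ratios nearest to 0, an order that did not hold after centring or loess.

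Every one of the 10 ratios lay between the 5 and 95 percentiles of named genes of like signal, taken as those within 0.5 of the gene's mean log2 signal. For Nr4a1 these were 3803 genes, whose ratios ran from -0.56 at the 5 percentile to 0.38 at the 95 percentile, around a median of -0.12. For Junb they were 3171 genes, with -0.54 and 0.34 around a median of -0.11. For Egr2 they were 4153 genes, with -0.53 and 0.65 around a median of 0.01. Such a range holds most genes of like signal by its definition, so lying within it does not set the 10 genes apart. Genes are not replicates, and these ranges describe this pair of arrays.

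**Figure D2:**
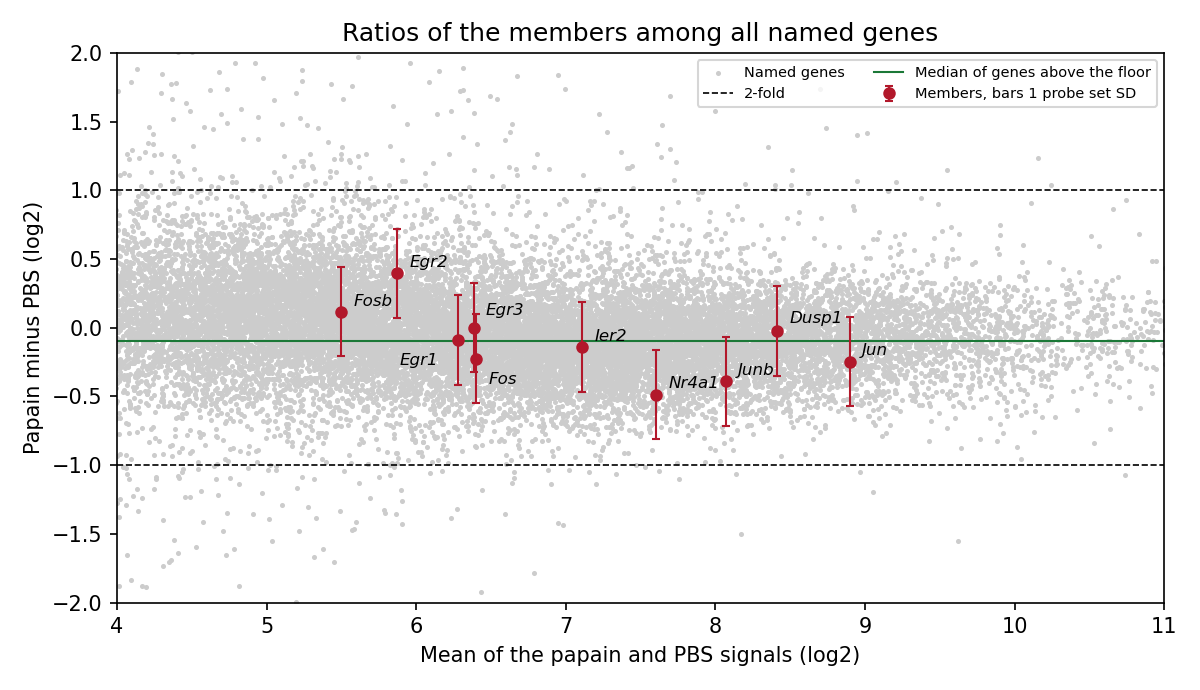
Papain minus PBS log2 ratio against the mean log2 signal for named genes (grey, those inside the axes) and the 10 immediate early genes (red), with dashed lines at 2-fold and a green line at the median of genes above the floor, -0.10. Red bars are 1 probe set SD of 0.32, not a spread between animals. All 10 genes lie within the bulk of genes of like signal.

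All 10 genes read above background level in both arrays. That level, the median of 29 genes of other tissues, stood at 4.88 for papain and 4.76 for PBS. Genes of other tissues also reached a 95 percentile of 6.65 over both arrays, and 5 of the 10 genes (Jun, Junb, Nr4a1, Dusp1 and Ier2) exceeded it in both. That percentile is raised by Odf1, which read 10.48 after papain and 10.91 after PBS, and by Uox, which read 6.46 after papain and 7.36 after PBS. The ratios of Fos, Fosb, Egr1, Egr2 and Egr3, with a signal under 6.65 in at least 1 array, are of uncertain size.

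The relatives of these factors also stayed within 2-fold. Of 12 listed AP-1 relatives 11 were measured, with 5 ratios above 0, 6 below, none past 2-fold and a median log2 ratio of -0.17. Jund, a JUN protein present in most resting cells, read 8.69 after papain and 9.18 after PBS, and Fosl2, a FOS relative, read 7.74 after papain and 8.23 after PBS, both with a log2 ratio of -0.49. Ratios below 0 were also found for Jdp2, a repressor that dimerises with JUN, at -0.38, and for the small MAF genes Mafg at -0.27, Maff at -0.22 and Mafk at -0.17. Ratios above 0 were found for the stress factors Atf3 at 0.23 and Atf4 at 0.09 and for the BATF genes, which encode AP-1 factors of leukocytes. Batf had 0.18, Batf3 0.47 and Batf2, an interferon-inducible member, 0.92, from signals of 6.25 after papain and 5.33 after PBS. Batf2 was the 1 AP-1 relative past 1.5-fold, and both its signals were under the floor.

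All 5 relatives of the EGR and NR4A factors were measured, with a median log2 ratio of -0.38 and none past 1.5-fold. Nab1 and Nab2, corepressors that bind EGR proteins, had -0.58 and -0.56. Nab1 read 7.47 after papain and 8.05 after PBS, and Nab2 read 7.48 after papain and 8.04 after PBS. Nr4a2, a sister receptor of Nr4a1, had -0.38, while Nr4a3 had 0.26 and Egr4 0.30, the last 2 from signals under the floor.

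The remaining immediate early genes likewise stayed within 2-fold. Of 48 listed 47 were measured, with 36 ratios below 0, 11 above, none past 2-fold and a median log2 ratio of -0.16. Csrnp1, a nuclear protein induced by axin, had the lowest at -0.64, and was the 1 gene of the list past 1.5-fold. Its signals, 5.49 after papain and 6.13 after PBS, were both under the floor. The kinase gene Sgk1 had -0.49, Gadd45b, a stress sensor, -0.49 and Ier5 -0.48. Over these 3 lists together, 0 of 63 measured genes were at least 2-fold apart and 3.17% at least 1.5-fold, against 2.56% and 9.72% of all named genes. Of the 63, 45 had ratios below 0, which is 71.4%, against 54.4% of all named genes and 64.1% of those above the floor.

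The lists of upstream, feedback and downstream genes had medians between -0.22 and -0.11 over all measured genes, against -0.03 for all named genes. Among genes above the floor their medians lay between -0.26 and -0.15, against -0.10 for all genes above the floor. The 22 measured upstream kinases and factors (of 25) had a median of -0.19, none past 2-fold, with 16 below 0. Srf, which encodes serum response factor, was lowest at -0.60, a 1.52-fold difference, reading 7.04 after papain and 7.65 after PBS. Map2k2, a kinase that activates ERK, had -0.51, the CREB coactivator gene Crtc1 -0.50 and Mapkapk2, a kinase downstream of p38, -0.45. The 15 MAP kinase feedback inhibitors had a median of -0.11, none past 1.5-fold. Among them Dusp6, a phosphatase of ERK, had -0.55, Dusp7 -0.41, Dusp8 -0.34 and Dusp2 0.41. The 14 measured genes that AP-1 can drive (of 15) had a median of -0.22, none past 2-fold and 2 at least 1.5-fold lower, the gelatinase Mmp9 at -0.81 and the haem oxygenase Hmox1 at -0.65. Plau, the urokinase gene, had -0.47 and the cyclin gene Ccnd1 -0.47. Of the 14, 4 had ratios above 0 and 10 below.

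Heat shock genes, which also respond to tissue handling, had a median of -0.20 over 12 measured of 14 listed. Of the 12, 5 had ratios above 0, the highest being Hspa1b at 0.27, and 7 had ratios below 0. Hspb1, a small heat shock protein, was 2.02-fold lower in the papain array, at 7.03 against 8.04 in the PBS array. It was the 1 gene past 2-fold among the 126 measured genes of the 7 pathway lists, or 0.79%, against 2.56% of all named genes. Its log2 ratio was -1.01 as deposited. It lay within 2-fold under each other scaling, at -0.95 after quantile normalization, -0.92 after centring on the median ratio, -0.89 after loess and -0.65 with its probe sets averaged. These 4 values were added after its ratio had been seen. The other genes of largest ratio were Hsph1 at -0.40, Cryab at -0.35 and Hspe1 at -0.35.

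**Figure D3:**
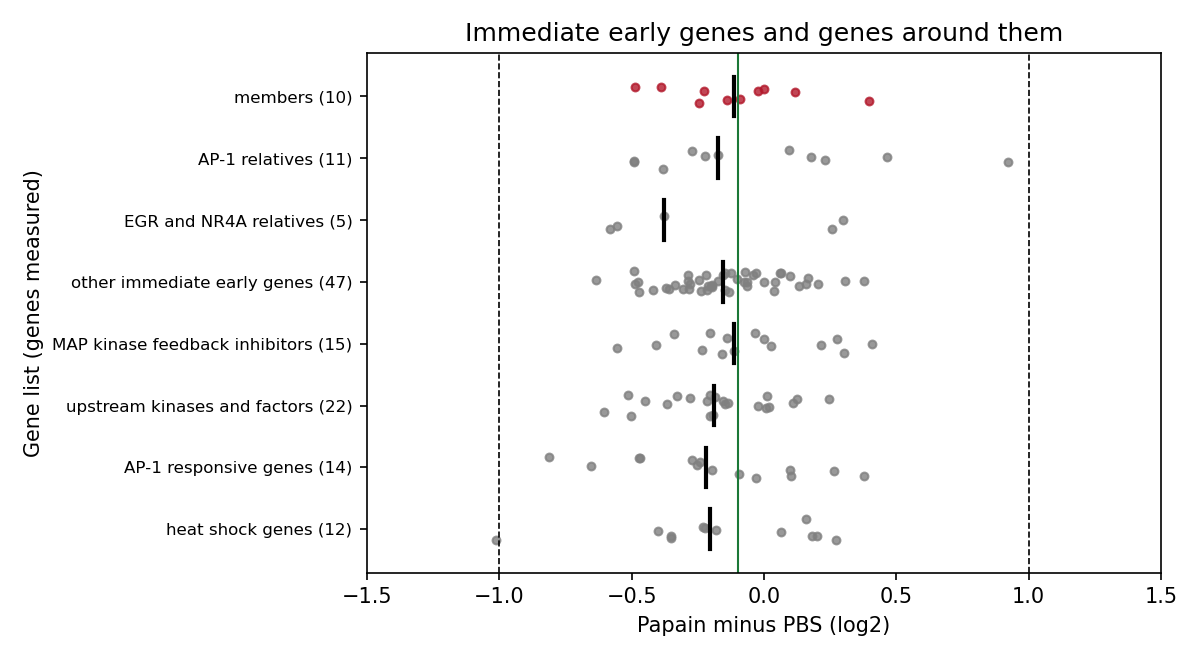
Papain minus PBS log2 ratio of each measured gene by list, with the number measured in parentheses, black bars at list medians, dashed lines at 2-fold and a green line at -0.10, the median of genes above the floor. All list medians lie between -0.38 and -0.11, and 1 point, Hspb1, lies past 2-fold.

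The tissue markers of the 2 arrays were not the same. All 7 ciliated cell markers and all 6 measured olfactory sensory neuron markers, cell types that nasal mucosa holds, were above the floor. All 7 vomeronasal neuron markers were higher in the papain array, with a median log2 ratio of 0.83 and median log2 signals of 7.94 after papain and 6.21 after PBS. Of the 7, 3 were past 2-fold, H2-M1, Calr4 and H2-M10.5, with log2 ratios of 3.88, 3.35 and 3.04 and PBS signals under background level. Trpc2, Gnao1, Meis2 and Gnai2 read above background level in both arrays, with log2 ratios of 0.83, 0.56, 0.29 and 0.10. The ratios of Meis2 and Gnai2 were within the probe set SD of 0.32. All 8 fibroblast markers, all 7 ciliated cell markers and all 6 measured olfactory sensory neuron markers were lower, with medians of -0.37, -0.45 and -0.36. Their median log2 signals were 10.14 after papain and 10.39 after PBS for fibroblasts, 9.31 after papain and 9.66 after PBS for ciliated cells, and 8.98 after papain and 9.44 after PBS for olfactory neurons. For comparison, 64.1% of all genes that passed the floor had a ratio below 0, around a median of -0.10. A 2-fold difference, up or down, was reached by 1.98% of them. Endothelial markers had a median of -0.15, smooth muscle and pericyte markers 0.23, and skeletal muscle markers -0.19 with all 6 signals under the floor. Of the 7 smooth muscle and pericyte markers, 6 were above 0. Among them Myh11 was just past 2-fold at 1.01, while Cspg4, the 1 below 0, had -0.56. Macrophage and monocyte markers at -0.04, T cell markers at -0.04 and basal cell markers at -0.02 changed sign when the arrays were scaled otherwise. The 5 measured T cell markers were all under the floor, and their median changed sign only after centring. The part of these differences in the ratios of the immediate early genes was not tested.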

How the data were processed

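Total RNA of nasal mucosa was hybridised to 1 array for papain and 1 for PBS. The values that the authors deposited are taken as log2 signals of transcript clusters, from their range, and had a median of 5.70 after papain and 5.64 after PBS. The submitters' processing notes list Transcriptome Analysis Console 4.0. How background was corrected and the arrays were normalized is not given in the sources used here. If the arrays were equalised, a difference in total RNA would not be visible.

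Of 41345 clusters, 23521 carried 1 gene symbol, 1814 several and 16010 none, and only the first were named. The brightest probe set stood for a gene; each of the 10 immediate early genes had 1. The log2 ratio is papain minus PBS. The number of arrays limits precision. The members and lists were chosen with earlier results of these data known, as were the 34 genes of other tissues, 29 of them measured. The text names all members, all AP-1, EGR and NR4A relatives, and from each other pathway list up to 4 genes of largest ratio among those above background in both arrays. Genes and promoters follow RefSeq, GRCm38.p6. Alternatives were quantile normalization, centring on the median ratio, loess with a span of 0.3, averaged probe sets, other folds (1.5 and 3) and other floors. The counting and scaling steps were tested on simulated data. Python 3.11.15, numpy 2.4.6, pandas 2.3.3, statsmodels 0.14.6 and matplotlib 3.10.9 were used.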

Additional observations from a re-analysis of the deposited data

How the results depend on the processing

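None of the 10 genes passed 2-fold under quantile normalization, centring, loess or averaged probe sets, or with the floor applied, and none passed 1.5-fold as deposited. Their ratios moved by at most 0.12. Signs turned for 3 genes with ratios near 0: Egr1 was 0.01 after centring, Egr3 was -0.0014 after quantile normalization, and Dusp1 was 0.03 after quantile normalization, 0.07 after centring and 0.07 after loess. The count of genes below 0 was therefore 7 as deposited and after quantile normalization, 6 after loess and 5 after centring, which adds 0.10 to every ratio. The median of the 10, -0.11 as deposited, was -0.02 after centring, -0.03 after loess and -0.18 among the 8 genes above the floor. Among all named genes, 186 passed 2-fold upward and 45 downward with the floor applied; without a floor these were 405 and 162, with a floor at the 75 percentile 93 and 18, and after centring 212 and 29, by construction of those settings. Of 18 list medians, 3 changed sign, those of basal, macrophage and T cells. No paired analysis was possible because each group is 1 array. Array signal over background limits the 5 dimmer genes, Fos, Fosb, Egr1, Egr2 and Egr3.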
